A study of Mus musculus with 2 samples.

Results

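The 8 genes described here govern whether lymphocytes leave, stay in or move within lymphoid tissue: the sphingosine-1-phosphate (S1P) receptors S1pr1, S1pr2, S1pr3, S1pr4 and S1pr5, the transcription factor Klf2, the membrane lectin Cd69 and the oxysterol receptor Gpr183. They were chosen by symbol and are 8 of the 32285 genes in the deposited gene lists. Their RNA was counted in single cells of mouse spleen, in 1 ALLO library and 1 SYN library. The ALLO library came from wild-type C57BL/6 recipients given 2 skin grafts, at 0 and 5 weeks. The graft donors were C57BL/6-Tg(HLAA2.1)1Enge/J mice, which carry a human HLA transgene that the recipients lack. The SYN library came from wild-type C57BL/6 recipients given skin of their own wild-type strain by the same procedure. Both groups thus shared surgery, tail skin as the graft, and Zoletil and Rompun anaesthesia. Spleens were taken 4 weeks after the second graft, and the cells were frozen, thawed, passed over a dead cell removal column and captured with the 10x Genomics 5′ v2 kit. The labels do not give the number, age or sex of the mice behind each library.

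S1P is abundant in blood and lymph and scarce inside lymphoid tissue, and lymphocytes that carry S1pr1 follow this gradient out. Klf2 switches on S1pr1, and Cd69 binds S1pr1 protein and removes it from the cell surface, so that freshly activated cells are held back. S1pr5 guides natural killer (NK) cells and some effector T cells, and S1pr3 helps to place marginal zone B cells. S1pr2 confines germinal centre B cells, S1pr4 is a further S1P receptor of lymphocytes, and Gpr183 (EBI2) draws cells towards oxysterols at the outer edge of the follicle.

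Of the barcodes with at least 1000 UMIs (unique molecular identifiers, 1 for each captured RNA molecule), 9926 of 11185 in ALLO and 11267 of 17777 in SYN, 4 gates were cut by lineage genes. The B gate (at least 2 UMIs of Cd79a and Cd79b, no Cd3 UMI) held 6980 ALLO and 6822 SYN cells. The CD4 T gate (a Cd3 and a Cd4 UMI, no Cd8 or Cd79a UMI) held 574 ALLO and 872 SYN cells, and the CD8 T gate (a Cd3 and a Cd8b1 UMI, no Cd4 or Cd79a UMI) held 559 ALLO and 555 SYN cells. The NK gate (a UMI of Ncr1 or Klrb1c, no Cd3 UMI) held 213 ALLO and 339 SYN cells. Levels are given in CPM, the UMIs of a gene scaled to the total UMIs of its gate, from totals of 812785 to 25786309 UMIs, with 95% counting intervals. With 1 library per group these intervals cover counting error only, and no test between ALLO and SYN was possible. A difference in handling or sequencing of a library cannot be told apart from the graft.

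Markers that the gates did not use were checked next. The 5 B cell markers summed to 7993 CPM in the ALLO and 7744 CPM in the SYN B gate, and the 5 T cell markers to between 1594 and 2303 CPM in the T gates. The 5 NK markers summed to 11424 CPM in the ALLO and 11841 CPM in the SYN NK gate. The NK gate was mixed, since 57 of its 213 ALLO and 109 of its 339 SYN barcodes also passed the B gate. These shared barcodes carried the B cell gene H2-Aa at 3446 CPM in ALLO and 3533 CPM in SYN, against 106 and 96.6 CPM in the remaining NK barcodes, so NK levels are given with and without them. RNA of cells that the gates do not target differed between the libraries, unevenly over the gates. The 4 neutrophil markers summed to 4.07 CPM in the ALLO B gate and 475 CPM in the SYN B gate. In SYN they summed to 116 CPM in CD4 T, 152 CPM in CD8 T and 12.3 CPM in NK cells, against 4.51 to 5.00 CPM in ALLO. The 3 CD8 T markers (Ccl5, Nkg7 and Cd8a) summed to 5068 CPM in the ALLO and 3501 CPM in the SYN CD8 T gate and were higher in the NK gate (13145 and 14795 CPM), so they do not tell these gates apart. Of the barcode sequences, 264 occurred in both libraries.

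In the GRCm38 (mm10) build that the files use, S1pr2 (chr9:20962361-20976781) and S1pr5 (chr9:21242912-21248443) lie near each other on the minus strand of chromosome 9, and the other 6 genes lie on 6 other chromosomes. S1pr1 is at chr3:115710433-115715072 (minus strand), S1pr3 at chr13:51408639-51422797 (plus), S1pr4 at chr10:81497747-81500132 (minus), Klf2 at chr8:72319033-72321656 (plus), Cd69 at chr6:129267325-129275436 (minus) and Gpr183 at chr14:121952551-121965195 (minus). All 8 are annotated as protein coding. Gpr183 overlaps Ubac2, S1pr3 overlaps Gm32834 and S1pr5 overlaps Gm48303, each on the other strand, and whether the counting used strand is not stated in the labels.

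The 250 bases before the start of S1pr3, S1pr4 and S1pr5 are shown because these 3 receptors were detected with, or apart from, Klf2 in single cells, as described further on. They are RefSeq sequences of GRCm38.p6, written 5′ to 3′ on the strand of the gene, from chr13:51408368-51408617 (plus strand) for S1pr3, chr10:81500138-81500387 (minus) for S1pr4 and chr9:21248444-21248693 (minus) for S1pr5. Capitals mark CACCC, the core of the sites that Klf factors bind, or its complement GGGTG.
S1pr3: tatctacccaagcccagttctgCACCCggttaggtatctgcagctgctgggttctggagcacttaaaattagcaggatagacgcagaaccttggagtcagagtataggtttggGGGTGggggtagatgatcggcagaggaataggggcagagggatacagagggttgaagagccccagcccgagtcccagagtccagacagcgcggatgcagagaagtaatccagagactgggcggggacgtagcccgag
S1pr4: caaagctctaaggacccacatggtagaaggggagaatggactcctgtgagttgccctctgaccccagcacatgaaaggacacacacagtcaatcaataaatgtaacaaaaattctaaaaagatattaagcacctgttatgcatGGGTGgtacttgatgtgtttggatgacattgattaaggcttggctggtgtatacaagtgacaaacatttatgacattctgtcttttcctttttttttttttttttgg
S1pr5: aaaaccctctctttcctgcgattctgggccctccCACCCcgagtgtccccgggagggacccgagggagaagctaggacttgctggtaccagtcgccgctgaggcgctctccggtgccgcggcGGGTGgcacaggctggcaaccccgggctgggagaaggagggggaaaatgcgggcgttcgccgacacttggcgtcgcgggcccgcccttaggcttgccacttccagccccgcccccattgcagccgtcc

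CACCC on either strand was found 2 times before S1pr3, 1 time before S1pr4 and 2 times before S1pr5, with its first base 228 and 137, 107, and 216 and 128 bases before the start. Of the 6 genes with an entry in the promoter table (S1pr2, S1pr3, S1pr4, S1pr5, Klf2 and Gpr183), 5 held it and Gpr183 did not, and 52.0% of all 32851 promoter windows of the same length held it, so these letters do not set the genes apart. The AP-1 letters TGANTCA were in 0 of the 6 windows and in 6.75% of all windows, and the Foxo letters GTAAACA were in 0 of the 6 and in 3.17% of all windows, with both strands searched.

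S1pr1, the main exit receptor, was highest in CD4 T cells and lowest in the NK gate in both libraries. It stood at 182 CPM in ALLO and 194 CPM in SYN CD4 T cells, and at 159 and 157 CPM in ALLO and SYN CD8 T cells. It stood at 104 and 118 CPM in ALLO and SYN B cells, and at 57.8 and 80.8 CPM in the ALLO and SYN NK gates. The order was the same in both libraries, and only the intervals of CD4 T (166 to 199 CPM) and CD8 T cells (145 to 174 CPM) in ALLO overlapped. The CD4 T level was 3.15 times that of the NK gate in ALLO (2.33 to 4.34) and 2.41 times in SYN (1.94 to 3.03). Without the barcodes that also passed the B gate, the NK level was 41.4 CPM in ALLO and 61.1 CPM in SYN. Between the grafts S1pr1 differed little: the ALLO over SYN ratio was 0.874 in B cells (0.828 to 0.922), 0.935 in CD4 T cells (0.831 to 1.05), 1.01 in CD8 T cells (0.884 to 1.15) and 0.716 in the NK gate (0.493 to 1.03). With cells thinned to 1000 UMIs the CD4 T ratio was 1.12, on the other side of 1.

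Within the B gate S1pr1 was 1.30 times as high in cells with Cr2 and without Fcer2a, the pattern of marginal zone B cells, as in Fcer2a-positive (follicular pattern) cells of ALLO (1.17 to 1.44), and 1.31 times in SYN (1.18 to 1.45). CD4 T cells with Foxp3, the factor of regulatory T cells, held 141 CPM in ALLO (98.0 to 196) and 185 CPM in SYN (134 to 251), beside 182 and 194 CPM in the whole ALLO and SYN CD4 T gates. CD8 T cells with the effector genes Klrg1, Gzma or Cx3cr1 held 144 CPM in both ALLO and SYN, beside 159 and 157 CPM in the whole ALLO and SYN CD8 T gates. The intervals of the Foxp3-positive and effector subsets overlapped those of their whole gates.

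S1pr5, the receptor of NK and effector T cell exit, was concentrated in the NK gate, and its ALLO over SYN ratio in CD8 T cells was the largest among the 8 genes with at least 20 UMIs. It stood at 255 CPM in the ALLO and 316 CPM in the SYN NK gate, and at 344 and 438 CPM once the barcodes shared with the B gate were left out. The level in CD8 T cells was 26.4 CPM in ALLO and 5.02 CPM in SYN, from 76 and 14 UMIs. CD4 T cells held 8.07 CPM in ALLO and 1.93 CPM in SYN, from 21 and 7 UMIs, and B cells held 1.82 CPM in ALLO and 2.89 CPM in SYN. The NK level was 140 times the B level in ALLO (101 to 196). In SYN the B, CD4 T and CD8 T levels overlapped in their intervals while NK stood 63.0 times above CD8 T cells (37.1 to 116). Of the S1pr5 UMIs in the B gate, 41 of 47 in ALLO and 52 of 67 in SYN lay in the barcodes that also passed the NK gate.

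In CD8 T cells S1pr5 was 5.26 times as high in ALLO as in SYN (2.95 to 10.1), above 99.9% of the 7712 genes with at least 50 UMIs. A UMI of S1pr5 was found in 7.51% of ALLO and 1.44% of SYN CD8 T cells (median depths 4956 and 4849 UMIs), beside 0.430% of ALLO and 0.674% of SYN B cells (3177 and 3002 UMIs). In B cells without the barcodes shared with the NK gate, which should lack it, the share was 0.0867% in ALLO (0.0318 to 0.189%) and 0.223% in SYN (0.125 to 0.368%). With every cell thinned to 1000 UMIs, 3.94% of ALLO and 0.721% of SYN CD8 T cells were positive, and the ratio of levels was 3.97. In CD4 T cells the ratio was 4.18 (1.71 to 11.6), but it rested on 8 positive cells in ALLO and 4 in SYN, and it was 2.28 after thinning. The share of positive CD4 T cells was 1.39% in ALLO (0.604 to 2.73%) and 0.459% in SYN (0.125 to 1.17%), and the SYN interval overlapped that of the SYN B cells without shared barcodes.

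Most of the S1pr5 of CD8 T cells came from few cells. Cells with Klrg1, Gzma or Cx3cr1 made up 47 of 559 ALLO and 18 of 555 SYN CD8 T cells (8.41% and 3.24%) and held 66 of the 76 ALLO and 12 of the 14 SYN UMIs. Their S1pr5 level was 351 CPM in ALLO (271 to 447) and 144 CPM in SYN (74.2 to 251), beside 26.4 and 5.02 CPM in the whole ALLO and SYN CD8 T gates. The ALLO level was above that of the whole ALLO NK gate (255 CPM) and the SYN level was below that of the SYN NK gate (316 CPM). The ALLO and SYN intervals did not overlap. They treat each UMI as independent and do not cover the spread between cells, and 1 CD8 T cell held up to 8 UMIs in ALLO and 4 in SYN. The NK marker list, which shares Gzma with this subset, summed to 466 CPM in the ALLO and 253 CPM in the SYN CD8 T gate, and to 146 and 44.1 CPM in the ALLO and SYN CD4 T gates. All 5 markers were detected in each, and their part in the S1pr5 difference was not tested. Within the NK gate S1pr5 was 2.16 times as high in cells with Itgam and without Cd27, the mature pattern, as in cells with Cd27 and without Itgam in ALLO (1.29 to 3.77), and 2.19 times in SYN (1.45 to 3.45).

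**Figure D1:**
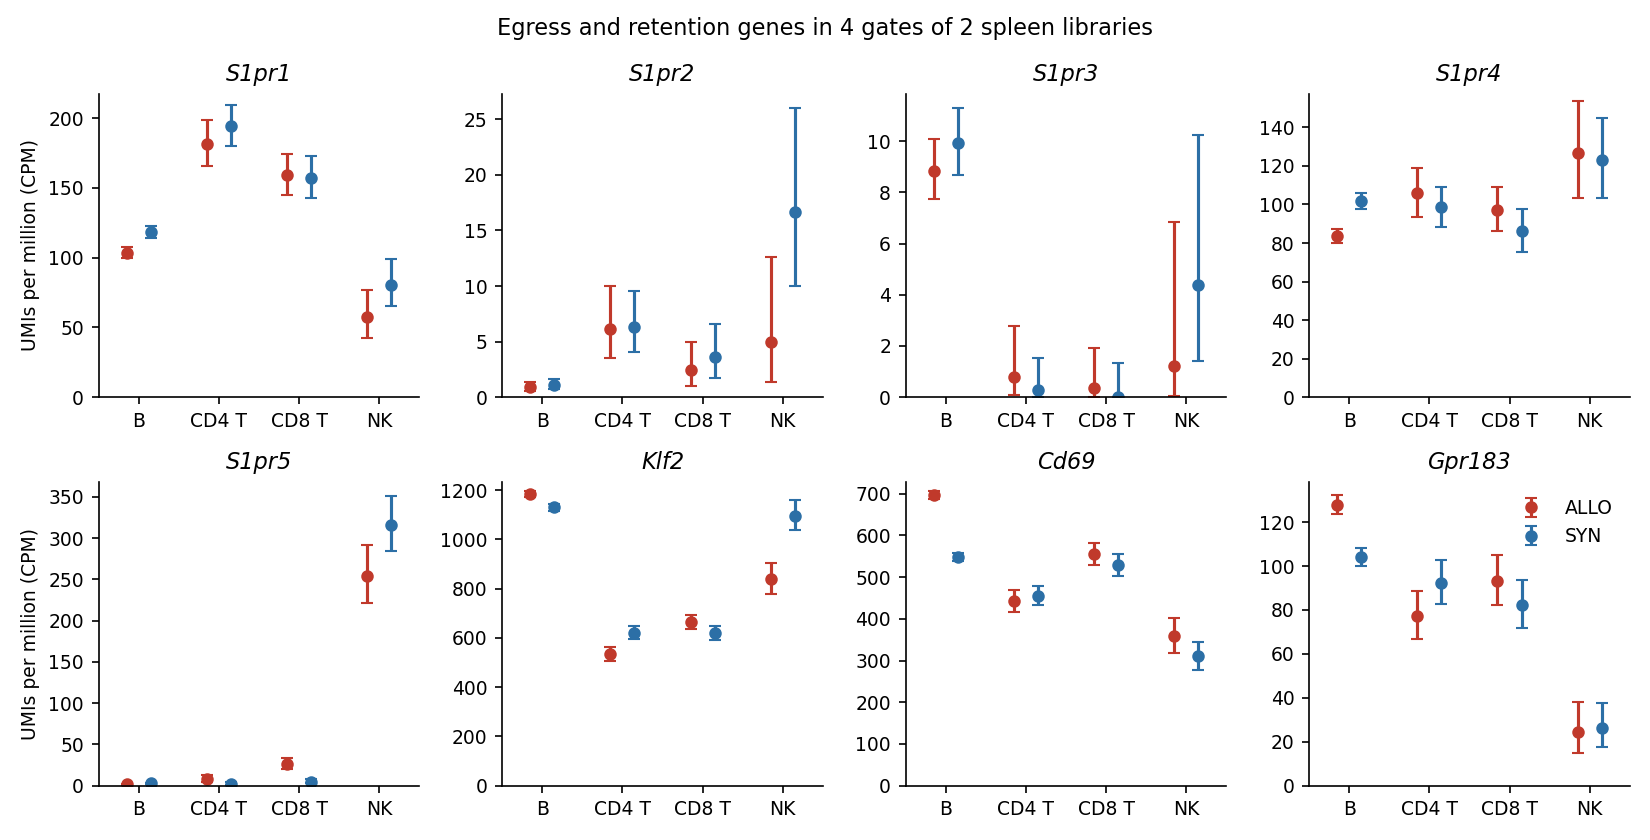
Level of each of the 8 genes in CPM (vertical axis, from 0) in the B, CD4 T, CD8 T and NK gates (horizontal axis), ALLO in red to the left of SYN in blue. Bars are 95% Poisson intervals of the UMI count of 1 library. S1pr5 reaches 255 CPM in the ALLO and 316 CPM in the SYN NK gate and is at most 26.4 CPM elsewhere, and Cd69 in B cells stands at 696 CPM in ALLO, against 547 CPM in SYN.

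S1pr3 was a B cell gene and, within B cells, a gene of the marginal zone pattern. B cells held 8.84 CPM in ALLO and 9.93 CPM in SYN, and the CD4 T and CD8 T gates held 0 to 2 UMIs in each library. The 1 ALLO and 5 SYN UMIs of the NK gate all lay in barcodes that also passed the B gate. Without these barcodes the gate held 0 UMIs in both libraries, with upper limits of 7.64 CPM in ALLO and 5.24 CPM in SYN. In B cells with Cr2 and without Fcer2a the level was 29.4 CPM in ALLO and 37.5 CPM in SYN, against 5.66 and 4.93 CPM in ALLO and SYN Fcer2a-positive B cells. The fold was 5.19 in ALLO (3.93 to 6.85) and 7.61 in SYN (5.69 to 10.2). S1pr4 and Klf2 ran the other way across the same pair of subsets, at 0.569 and 0.679 times the Fcer2a-positive level in ALLO and 0.555 and 0.656 times in SYN. The intervals of all 4 ratios excluded 1. S1pr3 was also higher in B cells with Myc than in B cells without it, at 15.4 against 5.97 CPM in ALLO and 21.8 against 6.43 CPM in SYN. The ALLO over SYN ratio in the whole B gate was 0.891 (0.738 to 1.07).

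S1pr2, the receptor of germinal centre confinement, was rare. The B gate held 24 ALLO and 25 SYN UMIs (0.931 and 1.08 CPM). Outside B cells S1pr2 stood at 6.15 CPM in ALLO and 6.34 CPM in SYN CD4 T cells and at 2.43 and 3.58 CPM in ALLO and SYN CD8 T cells. The NK gate held 4 ALLO and 19 SYN UMIs (4.92 and 16.7 CPM, ratio 0.295, 0.0730 to 0.888), and the ratio was 0.909 with cells thinned to 1000 UMIs. Without the barcodes shared with the B gate S1pr2 was at 8.28 CPM in ALLO and 22.7 CPM in SYN, and the interval of the ratio held 1 (0.364, 0.0886 to 1.13).

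S1pr4 was the most evenly spread receptor. Its levels ran between 83.7 and 127 CPM in the 4 ALLO gates and between 86.0 and 123 CPM in the 4 SYN gates. It was highest in the NK gate of both, and the intervals of neighbours in either order overlapped. Without the barcodes shared with the B gate the NK level was 149 CPM in ALLO and 139 CPM in SYN. In B cells it was at 83.7 CPM in ALLO and 102 CPM in SYN (ratio 0.823, 0.776 to 0.873), and in the other gates the intervals of the ratio held 1. CD8 T cells with Klrg1, Gzma or Cx3cr1 held 207 CPM in ALLO (147 to 284) and 120 CPM in SYN (57.4 to 220), beside 97.2 and 86.0 CPM in the whole ALLO and SYN CD8 T gates.

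Klf2, the factor that maintains S1pr1 and quiescence, stood at 1185 CPM in ALLO and 1129 CPM in SYN B cells. The NK gate held 838 CPM in ALLO and 1096 CPM in SYN, CD8 T cells 664 and 620 CPM, and CD4 T cells 534 and 620 CPM. B and NK levels overlapped in SYN and not in ALLO, and CD4 and CD8 T levels overlapped in SYN and not in ALLO. The ALLO over SYN ratio was 0.765 in the NK gate (0.695 to 0.840), 0.861 in CD4 T cells (0.805 to 0.921), 1.05 in B cells (1.03 to 1.07) and 1.07 in CD8 T cells (1.00 to 1.14). The direction differed between gates, and each difference was under 1.5-fold. Without the barcodes shared with the B gate the NK ratio was 0.738 (0.654 to 0.833), from 847 CPM in ALLO and 1147 CPM in SYN, so that B cells were highest in ALLO while in SYN the NK and B intervals overlapped. Other values differed between the same NK gates: the 4 plasma cell markers summed to 2413 CPM in ALLO and 145 CPM in SYN, led by Jchain at 2056 CPM in ALLO. Cells with under 10% ribosomal UMIs made up 10.8% of the ALLO and 4.72% of the SYN NK gate. Their part in the Klf2 difference was not tested. In the NK gate the Cd27-positive cells held 570 CPM in ALLO and 926 CPM in SYN, from 26 and 37 cells with 60 and 118 Klf2 UMIs. The Itgam-positive cells held 1182 and 1167 CPM in ALLO and SYN, from 59 and 106 cells. These subsets made up 12.2% and 27.7% of the ALLO gate and 10.9% and 31.3% of the SYN gate. The other NK cells were not measured apart, so the Klf2 difference cannot be placed in 1 subset. CD8 T cells with effector genes, the subset that carried most of the S1pr5 UMIs of that gate, held Klf2 at 1335 CPM in ALLO (1175 to 1510) and 921 CPM in SYN (727 to 1151). Both levels were above those of the whole ALLO and SYN CD8 T gates, and the intervals did not overlap. These intervals do not cover the spread between the 47 ALLO and 18 SYN cells. Plasma cells were low at 317 CPM in ALLO and 486 CPM in SYN (22 and 30 cells). They were chosen by Jchain with Sdc1, Prdm1 or Tnfrsf17, whether or not they passed a gate.

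Cd69, the retention lectin and early activation marker, was detected widely. B cells held 696 CPM in ALLO and 547 CPM in SYN, CD8 T cells 555 and 528 CPM, CD4 T cells 443 and 455 CPM, and the NK gate 358 and 310 CPM. After thinning to 1000 UMIs a Cd69 UMI was found in 44.6% of ALLO and 36.5% of SYN B cells (intervals 43.4 to 45.8% and 35.4 to 37.7%). The B cell ratio of 1.27 (1.24 to 1.30) was above that of 95.8% of the 11214 genes with at least 50 UMIs. In CD4 T (0.972, 0.901 to 1.05), CD8 T (1.05, 0.978 to 1.13) and NK cells (1.16, 0.986 to 1.35) the interval held 1. The difference was present in both B cell subsets: Fcer2a-positive cells held 721 CPM in ALLO and 571 CPM in SYN, and cells with Cr2 and without Fcer2a held 599 and 483 CPM. In the same B gates the heat shock genes Hspa1a (32.3 CPM in ALLO, 2.81 CPM in SYN) and Hspa1b (54.9 and 5.18 CPM) were 11.5 and 10.6 times as high in ALLO. B cells with a Myc UMI made up 23.3% of ALLO and 16.7% of SYN B cells. They held Cd69 at 675 CPM in ALLO and 529 CPM in SYN, against 706 and 553 CPM in B cells without a Myc UMI. Cd69 was thus slightly lower with Myc in both libraries (0.955 times in ALLO, 0.925 to 0.987, and 0.957 times in SYN, 0.917 to 0.998). The part of handling or activation in the Cd69 difference was not tested. NK barcodes shared with the B gate carried 467 and 439 CPM of Cd69 in ALLO and SYN, against 284 and 230 CPM in the remaining NK barcodes. Among CD8 T cells with effector genes Cd69 was at 330 CPM in ALLO (253 to 423) and 730 CPM in SYN (558 to 937), from 47 and 18 cells. The ALLO level was below and the SYN level above that of its whole CD8 T gate, with intervals that did not overlap. Here too the intervals do not cover the spread between cells.

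Gpr183, the receptor that pulls B cells to the outer follicle, was highest in B cells at 128 CPM in ALLO and 104 CPM in SYN (ratio 1.23, 1.17 to 1.29, above 94.7% of genes). CD8 T cells held 93.0 CPM in ALLO and 82.1 CPM in SYN (1.13, 0.946 to 1.36), and CD4 T cells 77.3 and 92.4 CPM (0.836, 0.699 to 0.999). The NK gate stood lowest at 24.6 CPM in ALLO and 26.3 CPM in SYN, and 17 of its 20 ALLO and 22 of its 30 SYN UMIs lay in barcodes shared with the B gate, leaving 6.21 and 11.4 CPM. Gpr183 was low in the cells that make antibody, at 14.0 CPM in ALLO and 17.4 CPM in SYN plasma cells (3 and 5 UMIs). Cells with Cr2 and without Fcer2a stood at 0.810 times the Fcer2a-positive level in ALLO (0.727 to 0.899) and 0.777 times in SYN (0.682 to 0.881).

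**Figure D2:**
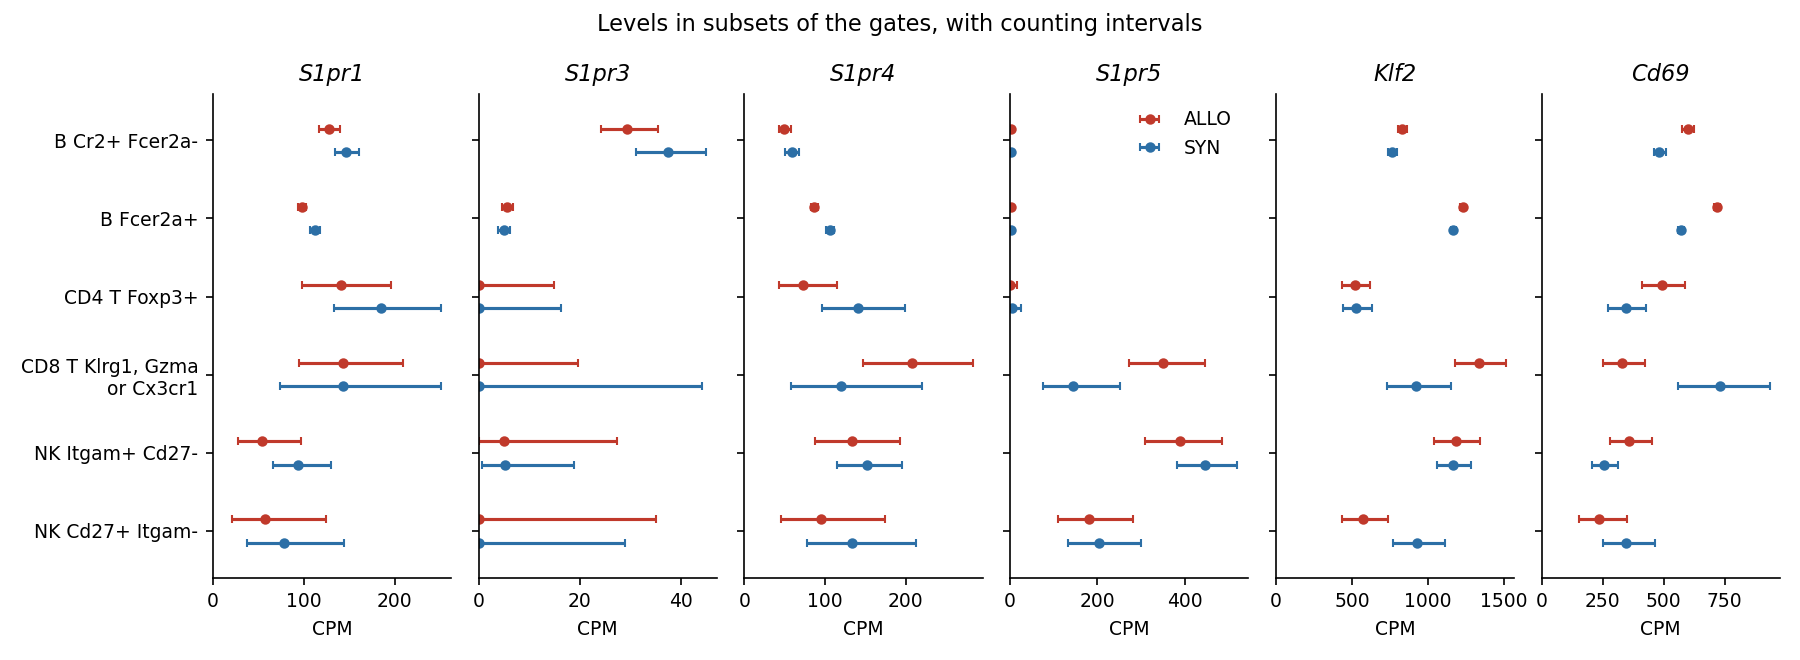
Levels in CPM (horizontal axis, from 0) of 6 of the genes in 6 subsets of the gates (rows), ALLO in red above SYN in blue, with 95% Poisson intervals of the UMI count. S1pr3 is highest in B cells with Cr2 and without Fcer2a (29.4 CPM in ALLO, 37.5 CPM in SYN), and S1pr5 in CD8 T cells with Klrg1, Gzma or Cx3cr1 stands at 351 CPM in ALLO and 144 CPM in SYN.

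Counted over the set, few of the 8 genes differed by size between ALLO and SYN. Among those with at least 20 UMIs over both libraries, 1 of 8 in B cells was at least 1.5-fold apart (S1pr5, lower in ALLO), where 4.49% of all genes with at least 50 UMIs were (1.54% higher and 2.94% lower in ALLO). The count was 1 of 7 in CD4 T cells (S1pr5, higher in ALLO; 7.46% of all genes, 5.15% higher and 2.31% lower), 1 of 6 in CD8 T cells (S1pr5, higher in ALLO; 5.82%, 2.17% higher and 3.66% lower) and 1 of 7 in the NK gate (S1pr2, lower in ALLO; 8.2%, 2.75% higher and 5.45% lower). The 2 lower ones rest on rare UMIs: the S1pr5 of the B gate is mostly that of barcodes shared with the NK gate, and S1pr2 in the NK gate is the 4 against 19 UMIs given above. S1pr3 in the other 3 gates and S1pr2 in CD8 T cells had too few UMIs to count. The median log2 ratio of all genes was -0.07 in B, 0.02 in CD4 T, -0.07 in CD8 T and -0.06 in NK cells, so the scaling itself was nearly level.

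**Figure D3:**
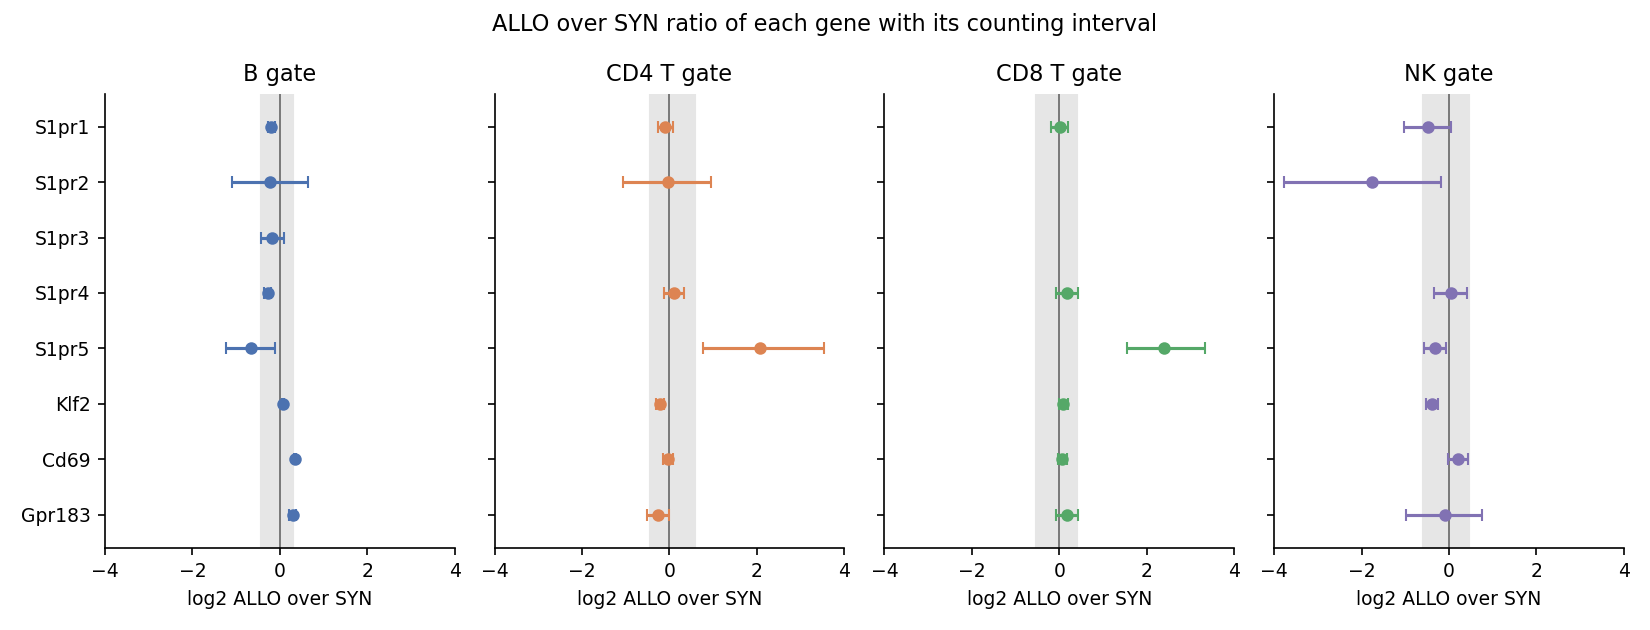
ALLO over SYN ratio on a log2 scale (horizontal axis) of each gene with at least 20 UMIs (rows) in the 4 gates, with 95% exact conditional intervals; the grey band spans the 5th to 95th percentile of all genes with at least 50 UMIs. S1pr5 in CD8 T cells, at 2.39, and in CD4 T cells, at 2.06, lies to the right of the band, and the ratios of S1pr1, S1pr4 and Klf2 lie inside it in every gate.

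Whether retention and exit genes exclude each other in single cells was asked of Cd69 and Klf2 after every cell had been thinned to 1000 UMIs. They did not: in B cells a Cd69 UMI was found in 47.7% of Klf2-positive and 39.6% of Klf2-negative cells of ALLO, and in 39.4% and 32.1% of SYN. The odds ratio was 1.39 in ALLO (1.26 to 1.54) and 1.38 in SYN (1.24 to 1.53), and Spearman's rho was 0.0949 over 6980 ALLO cells and 0.0946 over 6822 SYN cells. Cells of a library share its capture and sequencing, and so weak a rho is a description only. The share of ALLO B cells with Cd69 was 39.6%, 45.1%, 49.1% and 50.6% at 0, 1, 2 and 3 or more Klf2 UMIs, and that of SYN B cells was 32.1%, 37.3%, 38.9% and 44.0%. The ALLO share stood above the SYN share at every Klf2 count. The relation held in both subsets, with odds ratios of 1.29 in ALLO (1.15 to 1.45) and 1.33 in SYN (1.17 to 1.51) in Fcer2a-positive cells. In cells with Cr2 and without Fcer2a they were 1.65 in ALLO (1.254 to 2.17) and 1.51 in SYN (1.13 to 2.03). In T and NK cells the intervals of all 6 odds ratios held 1. The odds ratios were 0.991 in ALLO and 1.17 in SYN CD4 T cells, 1.04 and 1.10 in CD8 T cells, and 1.48 and 0.793 in the NK gate. In CD4 T cells the intervals ran from 0.672 to 1.45 in ALLO and from 0.863 to 1.58 in SYN. Levels, which also count repeat UMIs in a cell, did differ in places. Cd69 was 1.35 times as high in Klf2-positive as in Klf2-negative SYN CD8 T cells (1.07 to 1.71), beside 0.946 times in ALLO (0.750 to 1.19). Klf2 was 1.48 times as high in Cd69-positive as in Cd69-negative cells of the ALLO NK gate (1.07 to 2.04), beside 0.990 times in SYN (0.762 to 1.27). Klf2 was found in 72.4% of SYN CD8 T cells with 3 or more Cd69 UMIs (29 cells, 52.8 to 87.3%), against 43.5% of those with 0 (38.4 to 48.8%).

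The immediate early and heat shock genes, which cell handling can raise, moved with both genes in B cells. Their median log2 ratio of Klf2-positive over Klf2-negative B cells was 0.52 in ALLO and 0.50 in SYN, where all genes had a median of 0.01 in each. That of Cd69-positive over Cd69-negative B cells was 0.33 in ALLO and 0.43 in SYN. Their part in the joint detection of Cd69 and Klf2 was not tested.

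**Figure D4:**
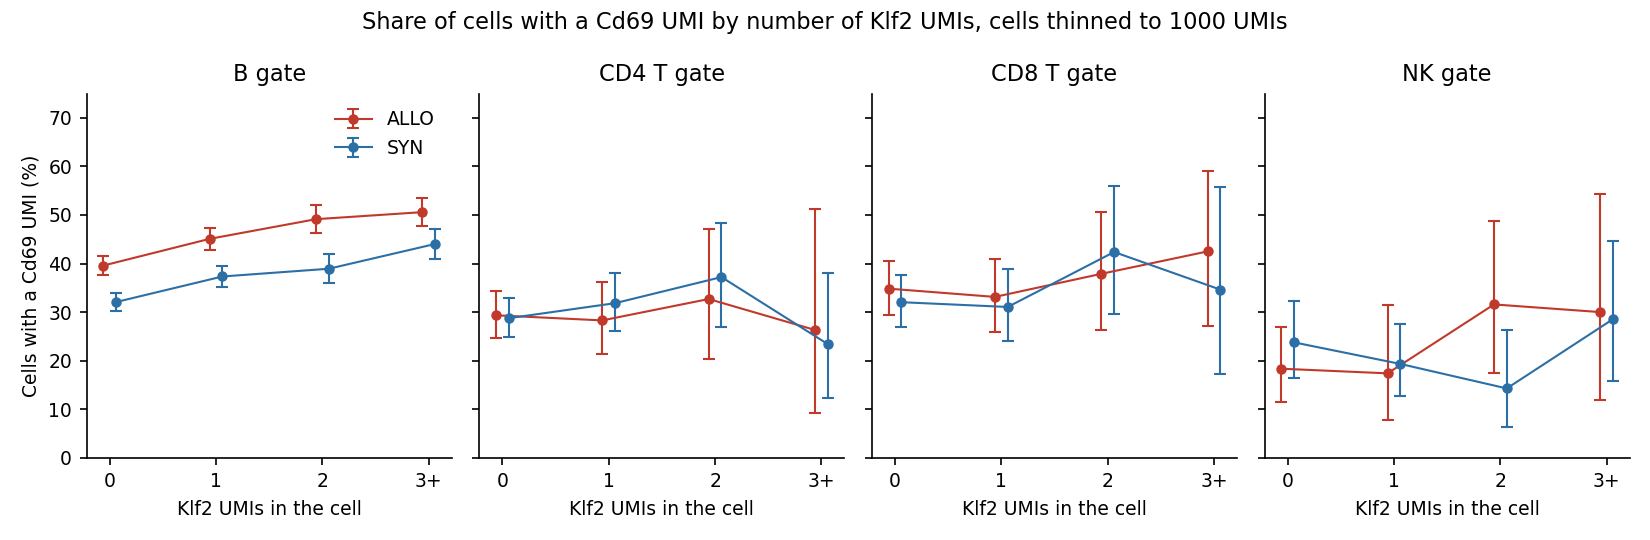
Share of cells with a Cd69 UMI in percent (vertical axis, from 0) by the number of Klf2 UMIs in the cell (horizontal axis) after thinning to 1000 UMIs, in 4 gates, ALLO in red and SYN in blue; bars are 95% Clopper-Pearson intervals. In B cells the share is higher at 3 or more Klf2 UMIs than at 0 in ALLO (50.6% against 39.6%) and in SYN (44.0% against 32.1%), and in the other gates the intervals overlap.

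All pairs of the 8 genes were described in the same way at 2000 UMIs per cell, a depth added after the sparse counts at 1000 had been seen. Of 104 odds ratios, 15 had an interval above 1, 7 below 1 and 82 held 1. S1pr1 and its activator Klf2 were found together in CD4 T cells, where Klf2 was detected in 73.9% of S1pr1-positive and 49.9% of S1pr1-negative cells of ALLO (odds ratio 2.85, 1.87 to 4.38) and in 70.1% and 57.1% of SYN (1.76, 1.26 to 2.48). In CD8 T cells the same pair stood at 0.954 in ALLO and 0.841 in SYN, with intervals that held 1. At 1000 UMIs it stood at 1.96 in ALLO (1.21 to 3.20) and 0.737 in SYN (0.436 to 1.23), so the ALLO value depended on the depth. S1pr4 and Klf2 were found together in B cells, at 1.90 in ALLO (1.56 to 2.34) and 1.66 in SYN (1.38 to 2.01). S1pr3 and Klf2 were found apart in B cells, with Klf2 in 58.1% of S1pr3-positive and 79.9% of S1pr3-negative cells of ALLO and in 59.0% and 80.5% of SYN (odds ratios 0.349 and 0.348). At 1000 UMIs the S1pr1 and Klf2 pair stood at 1.90 in ALLO and 1.52 in SYN CD4 T cells, and the S1pr3 and Klf2 pair at 0.232 in ALLO and 0.383 in SYN B cells, with intervals that excluded 1. S1pr3-positive ALLO B cells also lacked S1pr4, with 1 cell holding both where 11.7 would if the genes were independent. In SYN the counts were 9 and 15.3, and the interval held 1.

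S1pr5 was found with Klf2 in ALLO CD8 T cells at both depths, and apart from Cd69 at 2000 UMIs alone. Klf2 was found in 90.9% of S1pr5-positive and 67.6% of S1pr5-negative cells (odds ratio 4.79, 1.14 to 42.7), and Cd69 in 18.2% and 48.5% (0.236, 0.0574 to 0.732). At 1000 UMIs the odds ratio with Klf2 was 7.27 (2.10 to 38.7) and that with Cd69 was 0.679, with an interval that held 1 (0.214 to 1.87). In the SYN NK gate Cd69 was found in 23.8% of S1pr5-positive and 38.4% of S1pr5-negative cells (0.5001, 0.280 to 0.886), and at 1000 UMIs the interval held 1 (0.574, 0.280 to 1.12). In that gate the negative cells include the B cell barcodes, which are higher in Cd69. Detection of S1pr5 and Klf2 in the NK gate stood at an odds ratio of 1.21 in ALLO and 1.03 in SYN, and both intervals held 1. At 1000 UMIs it stood at 1.86 in ALLO (0.946 to 3.70) and 2.05 in SYN (1.17 to 3.67). A split of the NK gate by Klf2 at 1000 UMIs, chosen after its values were seen, gave S1pr5 at 356 CPM in ALLO cells with Klf2, against 202 CPM in those without (1.76-fold, 1.01 to 3.14). In SYN it was at 433 CPM against 230 CPM (1.89-fold, 1.23 to 2.99). By the smaller of its 2 library ratios S1pr5 ranked 2 of 464 genes there, next to Zeb2, a transcription factor tied to S1pr5 in NK cells (1.79-fold in ALLO, 2.01-fold in SYN). Gpr183 and Klf2 were found together in B cells at 1.33 in ALLO (1.13 to 1.57) and 1.26 in SYN (1.05 to 1.52), and at 1000 UMIs the ALLO interval held 1 (1.14, 0.982 to 1.33).

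**Figure D5:**
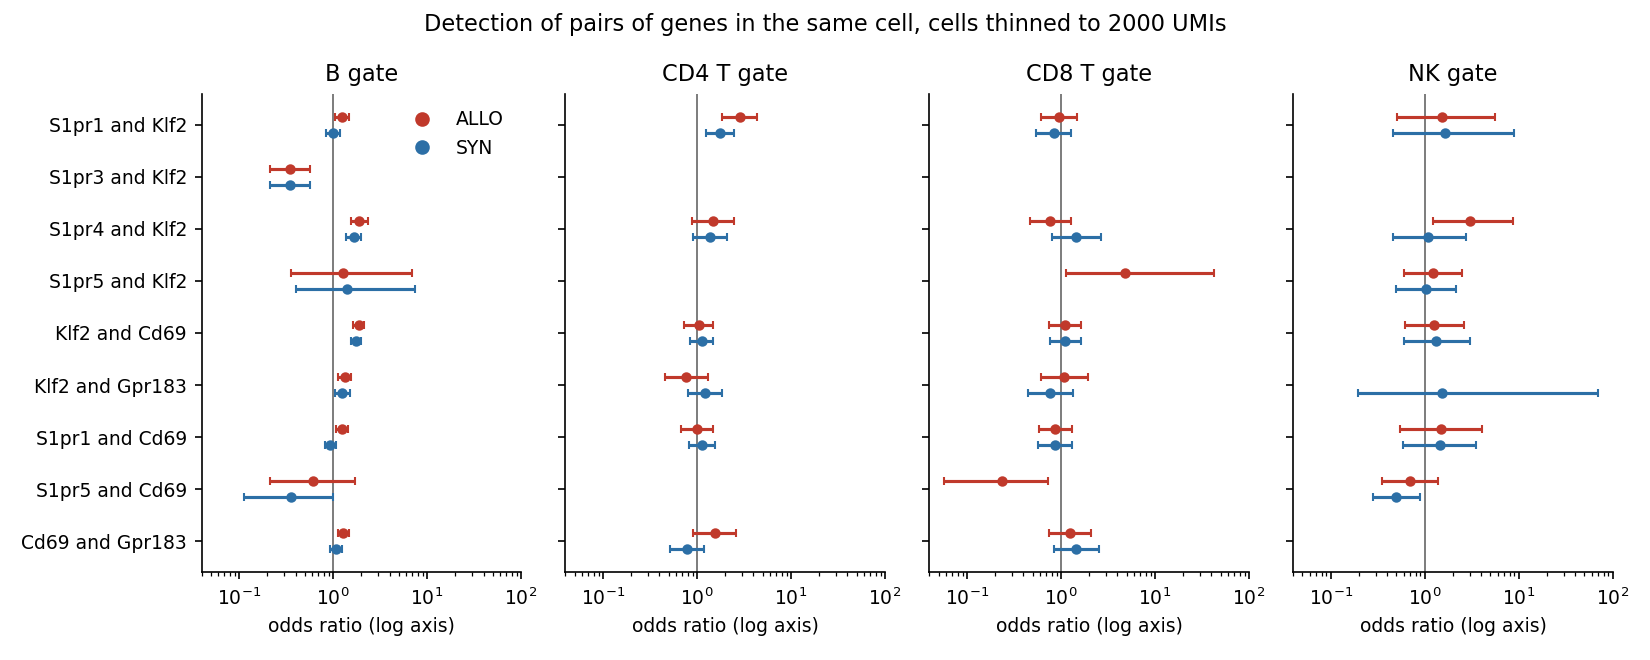
Odds ratio of detecting a pair of genes in the same cell (horizontal log axis, cells thinned to 2000 UMIs) for 9 pairs (rows) in 4 gates, ALLO in red above SYN in blue, with 95% exact conditional intervals; pairs whose expected number of cells with both genes is under 5 are left out. S1pr3 and Klf2 lie at 0.349 in ALLO and 0.348 in SYN B cells, and S1pr1 and Klf2 lie at 2.85 in ALLO and 1.76 in SYN CD4 T cells.

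Cells with Cd69 were higher than cells without it in the median of the immediate early genes. The immediate early and heat shock list had a median log2 ratio of 0.33 in ALLO and 0.43 in SYN B cells, 0.40 and 0.32 in CD4 T cells, 0.65 and 0.49 in CD8 T cells and 0.50 and 0.51 in the NK gate. The medians of all genes with at least 50 UMIs lay between -0.06 and 0.02. In B cells 0 of 13 of these genes in ALLO and 0 of 11 in SYN were at least 1.5-fold higher in Cd69-positive cells, where 2% and 1.55% of all genes were. The counts were 2 of 11 in ALLO and 0 of 10 in SYN CD4 T cells (5.12% and 3.14% of all genes), and 6 of 10 and 4 of 10 in ALLO and SYN CD8 T cells (4.27% and 5.31%). In the NK gate they were 4 of 9 in ALLO, with 1 lower, and 2 of 10 in SYN (6.65% and 5.41%). The antigen receptor activation list had medians of 0.91 in ALLO and 0.84 in SYN CD4 T cells from only 2 and 3 genes, and of 0.30 in ALLO and 0.40 in SYN B cells from 9 and 8 genes. In CD8 T cells Dusp1, a phosphatase induced by stimulation, was 1.96 times as high in ALLO and 1.99 times in SYN, and the AP-1 subunit Fosb 1.72 and 2.84 times. Leading genes in CD4 T cells were Egr1 (2.88-fold in ALLO, 1.79-fold in SYN), an early response factor, and Tnf (2.24- and 1.70-fold). The chemokine gene Ccl5 was low (0.620 and 0.624 times). Nkg7, a cytotoxic gene, ranked low at 0.613 and 0.579 times, but both of its intervals held 1 (0.338 to 1.06 and 0.270 to 1.14). In B cells the stress factor Ddit3 (1.54- and 1.60-fold) was among the 5 highest with Ift172, Plk3 and Zswim1, and the plasma cell gene Jchain was lowest (0.155 and 0.415 times). In the NK gate the leaders were the B cell genes H2-Aa (2.19- and 2.11-fold), H2-Eb1, Cd74 and Ly6d together with Fos, which goes with the shared barcodes described above. Hipk1, Ndufb7 and Zfp36 completed the 5 highest genes of CD8 T cells, and Clip1, Sntb1 and Cd96 those of CD4 T cells. The remaining of the 5 lowest genes were Gzma, Lmnb2, Nkg7 and Nudt1 in B cells and Hopx, Ppp4r2 and Psmd12 in CD4 T cells. In CD8 T cells they were Psmc3, Pycard, Cdk13, Rad21 and Ifi27, and in the NK gate Ndufa7, Sri, Pik3r1, Klrc2 and Anxa1. Both intervals held 1 for Zswim1 and Nudt1 in B cells and for Clip1, Sntb1, Cd96, Hopx and Psmd12 in CD4 T cells. The same was so for Cdk13, Rad21 and Ifi27 in CD8 T cells and Pik3r1 and Anxa1 in the NK gate. For several others, Tnf among them, the interval of 1 library held 1.

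The egress genes differed across that split in some gates. In B cells Klf2 was 1.20 times as high in Cd69-positive as in Cd69-negative cells of ALLO (1.15 to 1.248) and 1.21 times in SYN (1.16 to 1.27), rank 1054 of 7873 and 824 of 7936 genes from the top. Gpr183 was 1.33 times as high in ALLO (1.17 to 1.51) and 1.18 times in SYN (1.01 to 1.37). In ALLO CD8 T cells Gpr183 was at 147 CPM in Cd69-positive and 60.8 CPM in Cd69-negative cells (2.42-fold, 1.34 to 4.42), from 29 and 22 UMIs. This was the highest ratio of 1217 genes ranked. In SYN CD8 T cells it was at 92.9 and 83.3 CPM. S1pr1, whose protein Cd69 removes from the surface, was at 1.05 times in ALLO (0.909 to 1.21) and 1.00 times in SYN B cells (0.864 to 1.16), and at 1.01 and 0.840 times in ALLO and SYN CD4 T cells with intervals that held 1. At the greater depth given above, S1pr1 and Cd69 were detected together in ALLO B cells and not in SYN B cells. In the NK gate Klf2 was at the 1.48 times given above in ALLO, rank 41 of 470 genes from the top, and S1pr5 at 1.03 times in ALLO (0.509 to 1.93) and 0.642 times in SYN (0.366 to 1.07).

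No gene of the wider S1P and oxysterol pathways with at least 50 UMIs was at least 1.5-fold apart between the grafts. The S1P receptor signalling and desensitization list held 14 genes (12 with at least 50 UMIs in the NK gate), among them the GTPases Rac2 (924 CPM in ALLO and 990 CPM in SYN B cells) and Rhoa (653 and 664 CPM), and 0 were at least 1.5-fold apart in each of the 4 gates, with median log2 ratios between -0.06 and 0.04. The 10 genes of S1P production, transport and breakdown had 6, 3, 3 and 2 members with at least 50 UMIs in B, CD4 T, CD8 T and NK cells, and 0 of them were apart. Their median log2 ratios in these gates were -0.16, -0.35, -0.06 and -0.24, where those of all genes were -0.07, 0.02, -0.07 and -0.06. The breakdown enzymes Sgpp1 and Sgpl1 stood at 30.8 and 24.2 CPM in ALLO and at 30.9 and 28.0 CPM in SYN B cells. Of the 4 oxysterol enzymes only Cyp27a1 in B cells reached 50 UMIs, at 3.49 CPM in ALLO and 3.37 CPM in SYN. Of the 7 quiescence and homing genes of the Foxo1 and Klf2 axis, 1 was lower in ALLO in B, in CD4 T and in NK cells, where 2.94%, 2.31% and 5.45% of all genes were, and 0 were apart in CD8 T cells. In each case it was Il7r, the survival receptor of resting T cells. Il7r stood at 357 CPM in ALLO and 611 CPM in SYN CD4 T cells (0.585, 0.541 to 0.632), 28.3 and 50.9 CPM in the NK gate, and 1.94 and 7.25 CPM in B cells. Ccr7, which brings naive cells into lymph nodes, was at 0.808 times the SYN level in ALLO CD4 T cells.

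Of the 3 transcription factors tied to S1pr5, Zeb2 was higher in ALLO in CD8 T cells (28.5 CPM in ALLO, 11.5 CPM in SYN, 2.48-fold, 1.63 to 3.86). It was also higher in CD4 T cells (12.3 and 5.24 CPM, 2.35-fold, 1.29 to 4.38). That is 1 of 3 measured factors in CD8 T cells and 1 of 2 in CD4 T cells, where 2.17% and 5.15% of all genes were higher. Any link to the S1pr5 levels of these gates was not tested. Tbx21 (T-bet) stood at 53.5 CPM in ALLO and 38.0 CPM in SYN CD8 T cells, a 1.41-fold difference, and Eomes at 67.7 and 71.7 CPM. In the NK gate, where S1pr5 was 0.806 times as high in ALLO (0.676 to 0.959), Tbx21, Zeb2 and Eomes stood at 0.763, 0.803 and 0.814 times. In B cells Eomes was lower in ALLO (1.09 and 3.32 CPM in ALLO and SYN), from 28 and 77 UMIs of which 19 and 62 lay in the barcodes shared with the NK gate. It was 1 of 3 factors lower there, beside 2.94% of all genes. Of the 13 other positioning receptors, Cxcr3, a receptor of inflamed tissue homing, was higher in ALLO CD4 T cells (102 and 48.8 CPM, 2.08-fold), as was P2ry10 (1.66-fold). In CD8 T cells Cxcr5 was lower in ALLO (11.5 and 17.2 CPM). In the NK gate Gpr174 was higher (1.67-fold) and Cxcr4 and Cxcr5 were lower (0.525 and 0.634 times). In B cells Ccr9 was lower (0.814 and 1.38 CPM). The intervals of the Cxcr5 and Ccr9 ratios named here held 1. These are 2 of 8 measured receptors higher in CD4 T cells (5.15% of all genes), 1 of 10 lower in CD8 T cells (3.66%), 1 of 8 higher and 2 of 8 lower in the NK gate (2.75% and 5.45%), and 1 of 12 lower in B cells (2.94%).

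The activation and interferon lists gave the context of these cells. Of 10 antigen receptor activation genes with enough UMIs in CD4 T cells, Cd83 (2.83-fold), Il2ra (1.81-fold) and Tnfrsf9 (1.55-fold) were higher in ALLO, where 5.15% of all genes were. The count was 0 of 10 in B cells, 1 of 6 in CD8 T cells (Nr4a1, 1.82-fold) and 2 of 7 in the NK gate (Nr4a1, 1.87-fold, and Tnfrsf9, 1.73-fold). The median log2 ratio of this list was nevertheless 0.32 in B cells, where that of all genes was -0.07. It was 0.15 in CD4 T cells, -0.11 in CD8 T cells and 0.20 in the NK gate, beside 0.02, -0.07 and -0.06 for all genes. Of the interferon-induced genes, 3 of 7 were higher in ALLO B cells (Ifit3 at 2.37-fold, Usp18 at 1.998-fold and Ifit1 at 1.89-fold), 4 of 7 in CD4 T cells (Ifit3 at 6.59-fold, Ifit1, Isg15 and Ifi27l2a), 1 of 6 in CD8 T cells (Ifit3) and 0 of 3 in the NK gate. The shares of all genes higher in ALLO were 1.54% in B, 5.15% in CD4 T, 2.17% in CD8 T and 2.75% in NK cells. Of the 13 immediate early and heat shock genes, Hspa1a and Hspa1b were higher in ALLO in all 4 gates, at 4.71- to 11.5-fold, and Klf4 was lower in CD4 T cells (0.641 times).

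For each of the 8 genes, the 3 most similar genes were taken by Pearson's r of log2(CPM + 10) over the 8 sums of gate and library, among 7875 or 7876 genes. The points share libraries and gates, and r is a description. S1pr1 was closest to Rflnb (r = 0.995), Emg1 and Nipsnap1, and Rflnb ran between 4.92 CPM in the ALLO NK gate and 200 CPM in SYN CD4 T cells. S1pr3 was closest to Bend5 (0.995), Cmtr1 and Smagp, and S1pr5 to Larp7 (0.990), the NK receptor gene Klra9 (0.990) and Nptn. Klf2 was closest to Scmh1 (0.993), Sergef and Acox3. S1pr2 was closest to Dennd1c (0.978), Zfp865 and Desi1, and S1pr4 to Antxr2 (0.963), Impa1 and Skiv2l. Cd69 was closest to Zfas1 (0.949), Fpgs and Fau, and Gpr183 to Fau (0.980), Nufip1 and Arhgef12. The range behind an r can be small: Fau ran between 5602 CPM in the ALLO NK gate and 7941 CPM in ALLO B cells.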

How the data were processed

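Single-cell RNA of 1 ALLO and 1 SYN spleen library was analysed from the UMI count matrices that the authors deposited. Per the submitters' processing notes, they used FastQC and Cell Ranger 6.0.2 with mm10, and no source at hand names the annotation or a cell filter. The lowest deposited barcode has 500 UMIs. Barcodes of at least 1000 UMIs were gated, 8269 ALLO and 8479 SYN of them in a gate, and UMIs were summed per gate and library (CPM). With 1 library per group no test was made. Intervals at 95% (exact Poisson, exact conditional for ratios and odds ratios, Clopper-Pearson for shares) cover counting error only. A gene with at least 50 UMIs (20 for the 8 genes) and a ratio of at least 1.5-fold was counted as apart. Pairs in single cells used cells thinned to 1000 or 2000 UMIs. Python 3.11.15, numpy 2.4.6, scipy 1.17.1, scanpy 1.11.5 (Scrublet) and matplotlib 3.10.9 were used, and the ratio and odds ratio code was tested on simulated counts. The 8 genes and all lists were chosen with earlier results of these data known. Named were the 8 genes, list genes that were apart (else 1 or 2 with the most UMIs), the 3 genes most like each of the 8, and the 5 highest and 5 lowest genes of the Cd69 split. Doublets were kept. Some subsets and 1 gene of the Cd69 split are not reported here.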

Additional observations from a re-analysis of the deposited data

Results flagged for a closer look

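The ALLO over SYN ratio of 3 genes differed between gates, with intervals on opposite sides of 1, and these differences were not tested. For S1pr5 the CD4 T ratio was 6.63 times that of B cells and 5.19 times that of the NK gate. The CD8 T ratio of S1pr5 was 8.34 times that of B cells and 6.52 times that of the NK gate. Of the S1pr5 UMIs behind the B gate ratio, 41 of 47 in ALLO and 52 of 67 in SYN lay in barcodes shared with the NK gate. The CD4 T ratio of S1pr5 fell to 2.28 after thinning to 1000 UMIs. For Klf2 the B cell ratio was 1.22 times that of CD4 T cells and 1.37 times that of the NK gate, and the CD8 T ratio was 1.24 and 1.40 times those of the same gates. For Gpr183 the B cell ratio was 1.47 times that of CD4 T cells.

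Barcodes with under 1000 UMIs, 1259 in ALLO and 6510 in SYN, entered no comparison and held all 8 genes. In ALLO they held S1pr1 at 153 CPM, S1pr2 at 6.43 CPM, S1pr3 at 5.35 CPM, S1pr4 at 50.3 CPM, S1pr5 at 19.3 CPM, Klf2 at 621 CPM, Cd69 at 927 CPM and Gpr183 at 170 CPM. In SYN they held S1pr1 at 138 CPM, S1pr2 at 3.05 CPM, S1pr3 at 7.18 CPM, S1pr4 at 76.2 CPM, S1pr5 at 12.6 CPM, Klf2 at 715 CPM, Cd69 at 444 CPM and Gpr183 at 96.0 CPM. In barcodes of at least 1000 UMIs Cd69 stood at 640 CPM in ALLO and 515 CPM in SYN.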

How the results depend on the processing

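No paired analysis was possible because each group has 1 library, so the groups share fewer than 2 replicate numbers, and no library could be left out. Of 280 alternative values of the 28 gene ratios, 266 stayed within the counting interval of the main value, 14 moved outside it and 0 reversed a called direction. Ratios of rare genes moved by over 1.5 times with thinning to 1000 UMIs: S1pr5 in CD4 T cells to 2.28, S1pr2 to 0.407 in B cells, 0.380 in CD4 T cells and 0.909 in the NK gate, and Gpr183 in the NK gate to 0.398 (0.546 without barcodes of the B gate). S1pr5 in CD8 T cells ran between 3.97 and 5.95 and Cd69 in B cells between 1.249 and 1.34. The number of genes at least 1.5-fold apart, 1 in each gate, was 0 in CD4 T cells and 0 in the NK gate after thinning, 2 in CD4 T, CD8 T and NK cells with no minimum of UMIs for the 8 genes, 2 in the NK gate with no minimum of UMIs per barcode, and 2 in B cells and 3 in the NK gate at a lower fold threshold. The log2 odds ratio of Cd69 and Klf2 in B cells, 0.48 in ALLO and 0.46 in SYN, was 0.91 in ALLO and 0.82 in SYN at 2000 UMIs and 1.57 in ALLO and 1.30 in SYN without thinning. Without thinning it was also 0.74 in SYN CD8 T cells and 0.56 in the SYN NK gate, and unthinned values rise with the depth of a cell. The other 60 of 66 alternative odds ratios and 40 of 48 counts stayed near the main value. Scrublet at its own threshold marked 0 of 10744 ALLO and 2 of 17459 SYN barcodes, so that alternative was not run; leaving out the 8% highest scores, the NK gate without B gate barcodes and the pairs at 2000 UMIs were chosen after seeing the data.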

Other observations

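Levels were also taken in plasma cells and myeloid cells, chosen by their own genes whether or not they passed a gate. Plasma cells held S1pr1 at 46.6 CPM in ALLO and 45.1 CPM in SYN and Cd69 at 182 and 320 CPM, from 22 ALLO and 30 SYN cells. Myeloid cells held Klf2 at 517 CPM in ALLO and 741 CPM in SYN and Cd69 at 9.23 and 84.5 CPM. These values came from 24 ALLO and 87 SYN cells with 108379 and 354973 UMIs in all. The ALLO Cd69 level thus rests on very few UMIs.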
